A study of Mus musculus with 4 samples.

Results

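The genes described here are the 3 RUNX transcription factor genes Runx1, Runx2 and Runx3, their shared cofactor gene Cbfb, and the 3 genes of the ETO family of corepressors, Runx1t1, Cbfa2t3 and Cbfa2t2. They were taken by symbol from the table of expression values, where all 7 were found among 24497 gene rows. All 7 were among the 11452 genes that reached 1 TPM (transcript abundance scaled to a fixed total per library and corrected for transcript length) in at least 2 libraries and were tested. RNA was sequenced from cultured mouse acute myeloid leukaemia (AML) cells that carry NRAS and AE9a, in 2 libraries from wild-type (WT) cells and 2 from Tet2 KO cells. Both kinds of cell were grown from haematopoietic stem cells of mouse bone marrow, and the donors of the Tet2 KO group were Tet2-/- mice, whose Tet2 lacks exon 3. Both were kept in RPMI 1640 medium with stem cell factor (50 ng/ml), IL-3 and IL-6 (10 ng/ml), G418 (1 mg/ml) and puromycin (2 µg/ml), and the labels name no other treatment, so NRAS, AE9a and both selecting drugs are shared by the control group. The labels state neither the age of the mice, nor the promoter that drives AE9a, nor how many cultures or clones stand behind the libraries. The p-values below therefore cover library-to-library spread alone, and part of that may be technical.

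RUNX proteins bind DNA through their Runt domain and need CBFB, which does not bind DNA itself, to bind it firmly. Together they form core binding factor, in which RUNX1 is the subunit known for the onset of blood formation and for megakaryocytes and lymphocytes, RUNX2 for bone, and RUNX3 for T cells and natural killer cells. AML1-ETO, a fusion protein of human AML, joins the Runt domain of RUNX1 (AML1) to most of RUNX1T1 (ETO), and AE9a is a shorter splice form of it. ETO proteins recruit NCOR corepressors and histone deacetylases. Outside the fusion, CBFA2T3 (ETO2) is known as a partner of the TAL1 complex of blood progenitors, and CBFA2T2 (MTGR1) as a corepressor in stem and germ cells.

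The windows at the annotated starts are shown first, a choice made after the 3 RUNX factors were seen to move together. Whether the letters of these windows bear on the expression values was not tested. The windows run from 250 bases before to 50 bases after the start and are from RefSeq (build GRCm38.p6, the assembly also called mm10), which gave 9 windows for 6 of the 7 genes, and 2 each for Runx1, Runx3 and Cbfa2t3. In each sequence the capitals mark a RUNX motif, TGTGGT or TGCGGT on either strand. The windows are Runx1 distal, chr16:92826025-92826324 on the minus strand; Runx2, chr17:44814578-44814877 on the minus strand; Runx3 distal, chr4:135120395-135120694 on the plus strand; and Cbfa2t3 distal, chr8:122699060-122699359 on the minus strand.
Runx1 distal: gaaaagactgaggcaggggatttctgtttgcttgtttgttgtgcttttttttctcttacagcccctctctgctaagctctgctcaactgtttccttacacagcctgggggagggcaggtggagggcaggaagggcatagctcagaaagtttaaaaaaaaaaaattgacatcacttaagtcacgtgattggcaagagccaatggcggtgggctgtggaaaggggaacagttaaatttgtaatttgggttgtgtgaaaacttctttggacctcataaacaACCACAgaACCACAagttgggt
Runx2: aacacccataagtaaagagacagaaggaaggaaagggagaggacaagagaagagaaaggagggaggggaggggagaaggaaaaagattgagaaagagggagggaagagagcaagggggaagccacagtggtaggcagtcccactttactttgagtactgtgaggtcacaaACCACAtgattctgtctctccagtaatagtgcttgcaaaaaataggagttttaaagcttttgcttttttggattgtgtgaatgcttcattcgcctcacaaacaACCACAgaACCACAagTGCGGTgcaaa
Runx3 distal: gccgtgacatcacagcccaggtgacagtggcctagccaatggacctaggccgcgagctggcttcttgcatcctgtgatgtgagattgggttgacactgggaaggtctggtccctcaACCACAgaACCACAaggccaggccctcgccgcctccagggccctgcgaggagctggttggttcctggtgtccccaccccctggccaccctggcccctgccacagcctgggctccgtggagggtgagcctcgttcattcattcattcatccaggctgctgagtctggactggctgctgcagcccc
Cbfa2t3 distal: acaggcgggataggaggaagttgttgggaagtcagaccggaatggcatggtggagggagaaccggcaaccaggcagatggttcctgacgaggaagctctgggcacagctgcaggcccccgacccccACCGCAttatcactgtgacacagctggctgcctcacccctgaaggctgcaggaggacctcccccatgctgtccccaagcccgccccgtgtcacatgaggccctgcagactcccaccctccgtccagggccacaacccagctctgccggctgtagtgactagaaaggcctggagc

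The Runx1 distal, Runx2 and Runx3 distal windows all held one identical run of 18 bases with a pair of RUNX motifs whose first bases lie 8 apart.
Shared run: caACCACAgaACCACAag
It began 26 bases after the annotated start of Runx1, 21 after that of Runx2 and 136 before that of Runx3. Among the 32851 windows of the table, this run was in 4: these 3 and that of Gm16225, a predicted gene whose window overlaps that of Runx3 on the other strand. A pair of RUNX motifs at this spacing, whatever the letters between, was in 24 windows, or 0.0731%. At least 1 RUNX motif was in 22.4% of all windows. Runx2 held 4 matches, the Runx1 and Runx3 distal windows 2 each and the Cbfa2t3 distal window 1, and the other 5 windows held none. The spacing and the run were noticed in these windows, and are a description of the reference genome and not of binding in these cells.

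The windows also differed in CG dinucleotides, the base pairs at which DNA methylation is mostly placed and which TET2 acts on. The Runx1 proximal window (128745 bases downstream of the distal start) held 35, the Runx3 proximal window 45, the Cbfa2t3 proximal window 53, and those of Cbfb and Cbfa2t2 30 and 51. The distal windows held 2 for Runx1, 8 for Runx3 and 10 for Cbfa2t3, and the Runx2 window 2, against a median of 7 over all windows. Other motifs were sparse. ETS motifs (CCGGAAG or GAGGAAG, either strand, in 21.3% of all windows) had 2 matches in the Cbfb window and 2 in the Cbfa2t3 distal window. That last window also held the 1 GATA motif found (AGATAA or TGATAA, in 18.6% of all windows) and 3 E-boxes of the form CAGNTG (in 51.4% of all windows). The Runx1 distal window held 2 further E-boxes, and the Runx3 distal and Cbfa2t3 proximal windows 1 each. The values below are summed over all transcripts of a gene, so they do not tell which start was used, and methylation was not measured.

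**Figure D1:**
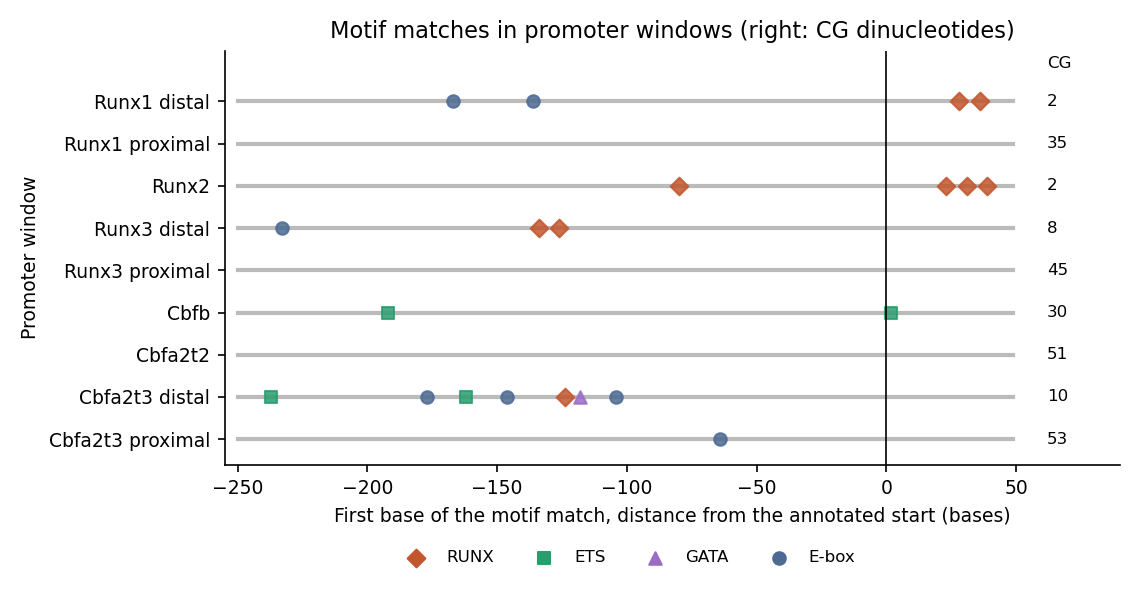
Motif matches in the 9 promoter windows, by distance in bases of their first base from the annotated start (0, vertical line), with the number of CG dinucleotides at the right. RUNX matches (diamonds) lie in the Runx2 window and in the distal windows of Runx1, Runx3 and Cbfa2t3, and the CG-rich proximal windows hold none.

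The general shift of the libraries bears on every value. The authors' TPM columns sum to the same total, keep no sequencing depth, and include spike-in RNAs that took 4.38 to 4.43% of the WT libraries and 5.33 to 5.48% of the Tet2 KO libraries. On this scale the median log2 fold change of all tested genes was 0.23, and 54.4% of them were called higher and 19.5% lower in Tet2 KO, 73.9% in all (limma adjusted p under 0.05). Rescaling each library to the median ratio over genes left 34.2% higher and 33.9% lower (68% in all), and rescaling to the spike-ins 31.1% and 33.6% (64.7% in all). Changes relative to the median gene are therefore given beside each member. Log2 fold changes were computed from log2(TPM + 1), where the added 1 makes the changes of low genes look smaller. For Tet2 itself the WT libraries gave 16.62 and 16.98 TPM and the Tet2 KO libraries 16.98 and 16.95 TPM (limma adjusted p = 0.868). Against the median gene it was lower (log2 fold change -0.21, limma adjusted p = 0.0118). The gene's value takes in all its exons, so it does not check the deletion of exon 3.

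All 3 RUNX factor genes were higher in Tet2 KO cells, by 1.81 to 1.94-fold. The Runx1 row may also hold reads of the introduced AE9a RNA, which carries a part of RUNX1. The labels do not say from which species the AE9a sequence comes, and introduced and native RNA were not told apart. Runx1 (ENSMUSG00000022952, chromosome 16, 92601466 to 92826149, mm10), the main RUNX factor of blood progenitors, had 55.90 and 56.62 TPM in the WT libraries against 102.08 and 101.96 TPM with Tet2 KO. The libraries of a group differed little and the groups were far apart. Its mean rose from 56.3 ± 0.509 to 102.02 ± 0.0849 TPM (SD, n = 2), 1.81-fold, with a log2 fold change of 0.85 (SE 0.0498, limma adjusted p = 2.54e-10). This change was above that of 90.3% of tested genes. It was 0.62 when measured against the median gene (limma adjusted p = 2.37e-06), and 0.60 against the spike-ins (limma adjusted p = 9.34e-05).

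Runx3 (ENSMUSG00000070691, chromosome 4, 135120652 to 135177990) had 25.27 and 24.14 TPM in the WT libraries against 44.86 and 48.34 TPM with Tet2 KO. Its mean rose 1.89-fold, from 24.7 ± 0.799 to 46.6 ± 2.46 TPM (log2 fold change 0.89, SE 0.0614, limma adjusted p = 1.88e-09). Runx2 (ENSMUSG00000039153, chromosome 17, 44495987 to 44814797) was the lowest of the 7 genes in both groups, with 3.60 and 3.88 TPM in WT libraries against 7.04 and 7.46 TPM with Tet2 KO. Both Tet2 KO libraries were again above both WT libraries. Its mean rose 1.94-fold, from 3.74 ± 0.198 to 7.25 ± 0.297 TPM (log2 fold change 0.80, SE 0.0977, limma adjusted p = 1.69e-06). Relative to the median gene the log2 fold changes were 0.66 for Runx3 (limma adjusted p = 8.65e-06) and 0.60 for Runx2 (limma adjusted p = 2.63e-04). Runx1 and Runx2 each overlap exons of an annotated antisense gene, by 106 and 519 bases. The library kit keeps strand, but no source used here says whether the counting used it.

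The sum of the 3 factors was 84.77 and 84.64 TPM in WT and 153.98 and 157.76 TPM in Tet2 KO, 1.84-fold higher, and the shares of its 3 members overlapped between the groups. Runx1 was 65.9 and 66.9% of the sum in WT and 66.3 and 64.6% in Tet2 KO. Runx3 was 29.8 and 28.5% in WT and 29.1 and 30.6% in Tet2 KO, and Runx2 4.25 and 4.58% against 4.57 and 4.73%. Such shares within a library do not depend on its scaling. Any AE9a reads counted under Runx1 would enter the sum and all 3 shares. No stretch of 50 bases in the annotated transcripts of any of the 7 genes was found in another of the 7. In transcripts of other genes, 1.11% of the stretches of Runx3 were found (315 genes), 0.475% of those of Runx2 (4 genes) and none of those of Runx1.

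**Figure D2:**
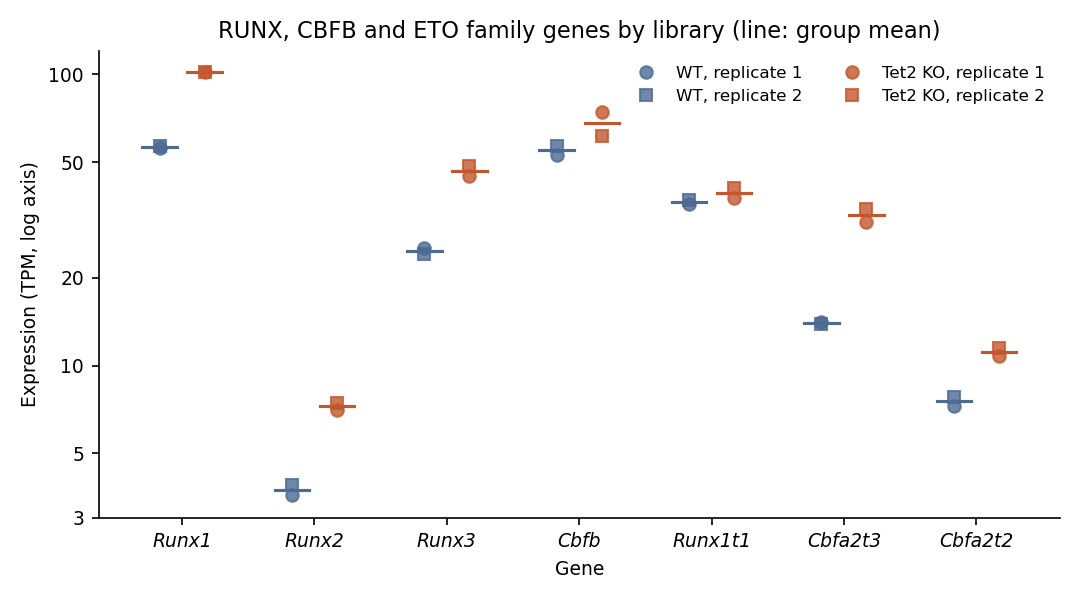
Expression of the 7 genes in TPM (log axis) in each of the 4 libraries, with circles for replicate 1, squares for replicate 2 and a line at each group mean. Both Tet2 KO libraries lie above both WT libraries for every gene, by a wide gap for the RUNX factors and Cbfa2t3 and a narrow one for Runx1t1 and Cbfb.

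Cbfb, the common partner of the RUNX factors, rose much less on the deposited scale, and its change relative to the median gene did not pass the test. Cbfb (ENSMUSG00000031885, chromosome 8, 105170674 to 105217989) had 53.00 and 56.76 TPM in the WT libraries against 74.14 and 61.67 TPM with Tet2 KO. The Tet2 KO libraries disagreed more than they did for 97.3% of the 7943 genes averaging at least 10 TPM. Its mean was 54.9 ± 2.66 and 67.9 ± 8.82 TPM (log2 fold change 0.30, SE 0.0844, limma adjusted p = 0.0117). It was not called against the median gene (0.07, 95% interval -0.16 to 0.29, limma adjusted p = 0.557), relative to the spike-ins (0.05, limma adjusted p = 0.705) or after quantile normalization (0.13, limma adjusted p = 0.247), with adjusted p from 1.4e-07 to 0.705 over all settings. Without Tet2 KO replicate 1 the log2 fold change was 0.17 and without Tet2 KO replicate 2 it was 0.43.

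The RUNX factors stood higher against Cbfb in Tet2 KO, a ratio that is free of the scaling. Their summed TPM was 1.60 and 1.49 times that of Cbfb in WT and 2.08 and 2.56 times in Tet2 KO. Runx1 alone was at 1.05 and 0.998 times Cbfb in WT and at 1.38 and 1.65 times in Tet2 KO. The groups did not overlap in either ratio, and most of the spread in Tet2 KO came with the Cbfb value itself. Lack of overlap was common: 62.4% of tested genes had both Tet2 KO libraries above both WT libraries, and 24.4% had both below. The share for ratios was not computed. With 2 libraries against 2, an exact permutation test (two-sided) cannot give a p below 0.333, so the ratios were not tested. Both ratios may also hold AE9a reads through the Runx1 row.

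Of the ETO family, Cbfa2t3 rose the most of all 7 genes, Cbfa2t2 rose modestly and Runx1t1 did not pass the test. Cbfa2t3 (ENSMUSG00000006362, chromosome 8, 122625141 to 122699109), the ETO protein of the TAL1 complex, had 14.07 and 13.92 TPM in the WT libraries against 31.20 and 34.48 TPM with Tet2 KO. The WT libraries were nearly equal, and both Tet2 KO libraries were far above them. Its mean rose 2.35-fold, from 14.0 ± 0.106 to 32.8 ± 2.32 TPM (log2 fold change 1.17, SE 0.0684, limma adjusted p = 2.3e-10), above the change of 95.8% of tested genes. Relative to the median gene the change was 0.95 (limma adjusted p = 1.76e-06). Exons of the gene overlap 295 bases of an annotated antisense gene.

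Cbfa2t2 (ENSMUSG00000038533, chromosome 2, 154436481 to 154539356) had 7.27 and 7.79 TPM in the WT libraries against 10.79 and 11.47 TPM with Tet2 KO. The groups were apart by several times the difference between libraries of a group. Its mean rose 1.48-fold, from 7.53 ± 0.368 to 11.1 ± 0.481 TPM (log2 fold change 0.51, SE 0.085, limma adjusted p = 5.08e-05). Relative to the median gene the change was 0.30 (limma adjusted p = 0.00671). Of its 50-base stretches 6.88% were also found in transcripts of 18 other genes, so part of its level may belong to those genes.

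Runx1t1 (ENSMUSG00000006586, chromosome 4, 13743436 to 13893649), the mouse gene of the ETO part of AML1-ETO, had 35.93 and 37.20 TPM in the WT libraries against 37.77 and 40.68 TPM with Tet2 KO. The lower Tet2 KO library was within 1 TPM of the higher WT library. The log2 fold change was 0.10 (SE 0.06, 95% interval -0.03 to 0.23, limma adjusted p = 0.15), and the sign turned relative to the median gene (-0.13, limma adjusted p = 0.0468), relative to the spike-ins (-0.15, limma adjusted p = 0.038) and after quantile normalization (-0.12, limma adjusted p = 0.0632). Without Tet2 KO replicate 1 it passed as higher (0.15, limma adjusted p = 0.0393), and its adjusted p ranged from 0.038 to 0.504 over all settings. AE9a joins parts of RUNX1 and RUNX1T1, of a species the labels do not state. Reads of the introduced RNA may have been counted under Runx1 and Runx1t1, and introduced and native RNA were not told apart here.

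Within the ETO family the Runx1t1 row held a smaller share and Cbfa2t3 a larger one in Tet2 KO. Since the Runx1t1 row may hold AE9a reads, these shares may mix introduced with native RNA. Runx1t1 made up 62.7 and 63.1% of the family's summed TPM in WT and 47.4 and 47.0% in Tet2 KO. Cbfa2t3 made up 24.6 and 23.6% in WT and 39.1 and 39.8% in Tet2 KO. Both differences were many times that between libraries of a group. Cbfa2t2 stayed between 12.7 and 13.5% in all 4 libraries. The ratio of Runx1 to Runx1t1, whose rows may both hold AE9a reads, was 1.56 and 1.52 in WT and 2.70 and 2.51 in Tet2 KO, and that of Cbfa2t3 to Runx1t1 was 0.392 and 0.374 against 0.826 and 0.848. Neither ratio overlapped between the groups, and how often ratios of other genes do so was not computed.

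**Figure D3:**
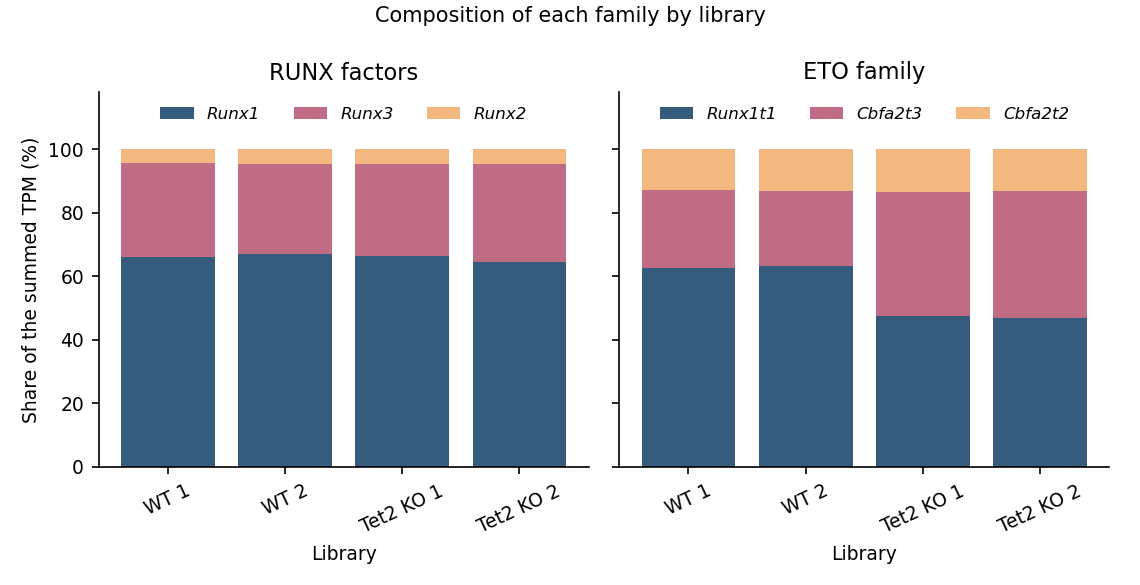
Share of the summed TPM (percent) held by each gene within the RUNX factors (left) and within the ETO family (right) in each library. Runx1 keeps 64.6 to 66.9% of the RUNX sum in all 4 libraries, while Runx1t1 goes from 62.7 and 63.1% of the ETO family sum in WT to 47.4 and 47.0% in Tet2 KO. The Runx1 and Runx1t1 rows may both hold AE9a reads.

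In WT the order of levels was Runx1, Cbfb, Runx1t1, Runx3, Cbfa2t3, Cbfa2t2 and Runx2, in TPM. Runx1 and Cbfb overlapped there, and no other neighbours did. In Tet2 KO the order was Runx1, Cbfb, Runx3, Runx1t1, Cbfa2t3, Cbfa2t2 and Runx2, with no neighbours overlapping, so that Runx3 and Runx1t1 changed places. Any AE9a reads in the Runx1 and Runx1t1 rows would bear on the places of these rows in both orders. Of the 7 genes 6 were called higher and 0 lower on the deposited scale, beside 54.4% and 19.5% of all genes. All 7 had both Tet2 KO libraries above both WT libraries, as did 62.4% of the genes tested. Relative to the median gene 5 were higher and 1, Runx1t1, was lower, beside 34.2% and 33.9%. The median log2 fold change of the 7 was 0.80, against 0.23 for all genes.

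**Figure D4:**
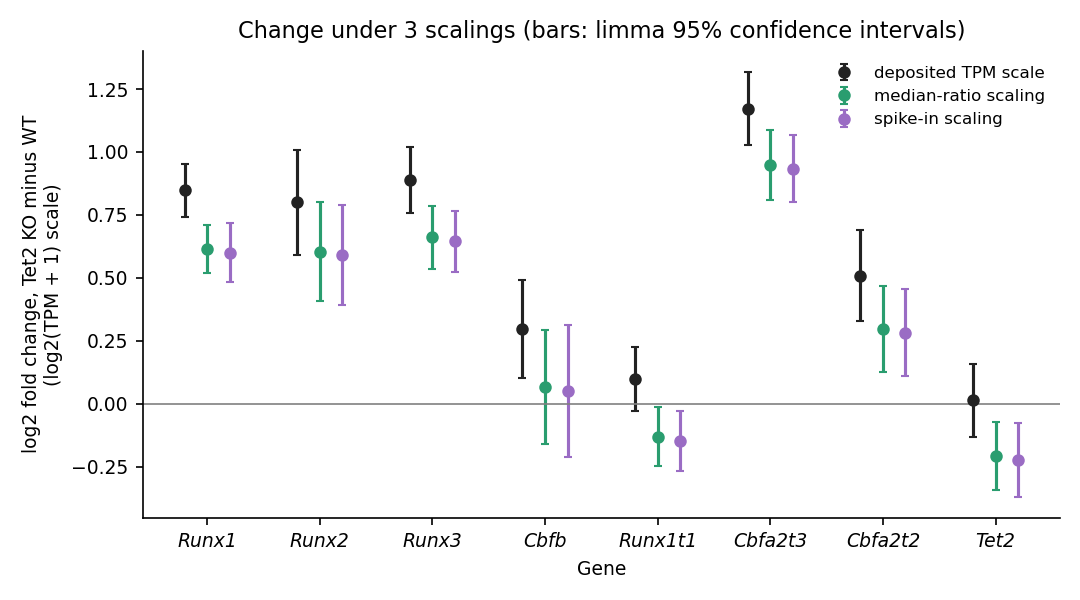
Log2 fold change (Tet2 KO minus WT, log2(TPM + 1) scale) of the 7 genes and Tet2 on the deposited scale, after median-ratio scaling and after spike-in scaling, with limma 95% confidence intervals. The intervals of Runx1, Runx2, Runx3, Cbfa2t3 and Cbfa2t2 lie above 0 on all 3 scales, that of Cbfb does so on the deposited scale only, and those of Runx1t1 and Tet2 lie below 0 on the rescaled ones.

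The 5 genes whose profile over the 4 libraries lay nearest to that of Runx1, by Euclidean distance of centred log2(TPM + 1) among 7760 genes averaging at least 10 TPM, were Cxxc5, Pkp4, Arid2, Atf6 and Osbpl2. Their distances were 0.0233 to 0.033. Cxxc5, which encodes a zinc finger protein that binds unmethylated CG dinucleotides, had 21.77 and 22.50 TPM in the WT libraries against 40.52 and 40.97 TPM with Tet2 KO. Arid2, a subunit gene of a SWI/SNF chromatin remodelling complex, had 20.72 and 20.98 TPM in the WT libraries against 38.85 and 39.14 TPM with Tet2 KO. This likeness rests on 4 libraries in 2 groups.

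Partners and targets of RUNX1, ETO proteins and AML1-ETO were followed in 5 lists. The lists were chosen with earlier results of these data known, so their shares beside those of all genes are only a description. Together they hold 89 genes. Of these 78 were tested, and 73.1% were higher and 16.7% lower (57 and 13 genes), beside 54.4% and 19.5% of all genes. Relative to the median gene 56.4% were higher and 24.4% lower (44 and 19 genes), beside 34.2% and 33.9%. The filter on low values let in 2 of the 78, Prkcq and Zbtb16, through the Tet2 KO libraries alone, where they are high, so that they had to differ, and without them the counts were 55 and 13, and 42 and 19 relative to the median gene. The largest share of higher calls was in the blood bHLH, LMO and GATA list, the factors of the TAL1 complex and of the AML1-ETO complex, with 14 of 16 higher and 1 lower, or 87.5% and 6.25% beside 54.4% and 19.5% of all genes. After median-ratio scaling 12 were higher and 2 lower, or 75.0% and 12.5% beside 34.2% and 33.9%. The median log2 fold change of the list was 0.66, against 0.23 for all genes. Tal1, the bHLH factor that CBFA2T3 binds within its complex, had 40.41 and 40.96 TPM in the WT libraries against 91.80 and 97.30 TPM with Tet2 KO (log2 fold change 1.20, limma adjusted p = 9.27e-12). Gata2, a factor of stem and mast cells, rose from 59.98 ± 1.55 to 133.7 ± 2.29 TPM, and Gata1, the erythroid and megakaryocyte factor, from 4.52 ± 0.0919 to 12.06 ± 0.00707 TPM. The E protein gene Tcf12 (HEB), whose product binds the ETO part of the fusion, had 21.06 and 22.45 TPM in the WT libraries against 47.11 and 46.67 TPM with Tet2 KO. Lmo2, the bridging protein of these complexes, was the 1 that fell, from 177.1 ± 0.672 to 141.9 ± 2.63 TPM (log2 fold change -0.32, limma adjusted p = 5.79e-06).

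Of the 18 corepressor genes of ETO and RUNX proteins 13 were higher and 1 lower, or 72.2% and 5.56% beside 54.4% and 19.5% of all genes. After median-ratio scaling 10 were higher and 4 lower, or 55.6% and 22.2% beside 34.2% and 33.9%. The median log2 fold change of the list was 0.44. Without Zbtb16, which was let in through the Tet2 KO libraries alone, 12 of 17 were higher. Ncor1, the nuclear corepressor that ETO proteins bind, rose from 54.8 ± 1.12 to 108.7 ± 2.38 TPM, and Tbl1x, a further subunit of the NCOR complex, from 33.9 ± 1.58 to 70.98 ± 1.29 TPM. Zbtb16 (PLZF), a repressor that binds ETO, had 0.14 and 0.19 TPM in the WT libraries against 2.42 and 2.48 TPM with Tet2 KO. The deacetylase genes did not pass the test: Hdac3, the enzyme of the NCOR complex, had 51.10 and 53.89 TPM in the WT libraries against 48.00 and 49.50 TPM with Tet2 KO, and the log2 fold changes of Hdac1 and Hdac2 were 0.03 and 0.06. Relative to the median gene all 3 were lower (-0.34, -0.20 and -0.17 in that order). Suv39h1, a histone methyltransferase, was the 1 lower gene (35.98 ± 1.16 to 32.2 ± 0.198 TPM, log2 fold change -0.16, limma adjusted p = 0.0238). Leaving out WT replicate 1 or WT replicate 2 removed that call (limma adjusted p = 0.0606 and 0.215, and from 1.16e-04 to 0.215 over all settings).

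The tested genes that activate or modify RUNX proteins, 19 in number, had a median log2 fold change of 0.27, against 0.23 for all genes. Of them 13 were higher and 4 lower, or 68.4% and 21.1% beside 54.4% and 19.5% of all genes. After median-ratio scaling 7 were higher and 5 lower, or 36.8% and 26.3% beside 34.2% and 33.9%. The acetyltransferase gene Kat6a (MOZ), a RUNX1 coactivator, rose from 18.2 ± 0.7 to 34.4 ± 1.35 TPM, Kmt2a (MLL) from 15.1 ± 0.417 to 28.5 ± 1.42 TPM, and the kinase gene Hipk1 from 59.6 ± 1.46 to 109.1 ± 4.43 TPM. Its relative Hipk2, which phosphorylates RUNX1, fell from 27.5 ± 0.148 to 15.5 ± 1.56 TPM. Ccnd3, the cyclin D3 gene, fell from 270.4 ± 4.12 to 198.5 ± 11.6 TPM and Mapk3 (ERK1) from 221.8 ± 1.8 to 186.5 ± 4.27 TPM. Yap1 was listed at 0 in all libraries.

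Known RUNX targets did not move as one, and the list was not split by whether RUNX factors raise or lower them. Of 20 genes 13 were tested and the other 7 stayed below 1 TPM. Of the 13, 10 were higher and 3 lower, or 76.9% and 23.1% beside 54.4% and 19.5% of all genes. After median-ratio scaling 9 were higher and 3 lower, or 69.2% and 23.1% beside 34.2% and 33.9%. The median log2 fold change of the list was 0.59. Of the 20 genes 6 are also in the lists of lineage markers described at the end, which moved too, and their part in these counts was not tested. Pf4, the platelet factor gene, had 13.94 and 11.10 TPM in the WT libraries against 68.71 and 71.37 TPM with Tet2 KO. Gfi1, a repressor of granulocyte progenitors, rose from 28.2 ± 1.54 to 66.0 ± 1.6 TPM. Prkcq, the protein kinase C theta gene, had 0.66 and 0.38 TPM in the WT libraries against 8.43 and 8.21 TPM with Tet2 KO. It was let in through the Tet2 KO libraries alone, and without it 9 of 12 were higher. Elane, the neutrophil elastase gene, fell from 38.2 ± 1.35 to 10.84 ± 0.212 TPM and Csf1r, the receptor of macrophage colony-stimulating factor, from 100.09 ± 0.863 to 41.4 ± 2.84 TPM. Spi1 (PU.1), whose upstream enhancer RUNX1 binds, fell from 300.4 ± 7 to 224.1 ± 5.99 TPM.

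Of 18 genes known to respond to AML1-ETO 16 were tested, and 11 were higher and 4 lower, or 68.8% and 25% beside 54.4% and 19.5% of all genes. After median-ratio scaling 9 were higher and 5 lower, or 56.2% and 31.2% beside 34.2% and 33.9%. The median log2 fold change of the list was 0.51. The list mixes genes that the fusion is known to raise and to lower, shares 4 genes with the target list and has 2 in the lineage marker lists. Nf1, the RAS inhibitor gene that AML1-ETO represses, rose from 8.33 ± 0.255 to 20.4 ± 0.778 TPM, and Plcg1, the phospholipase C gamma gene, from 15.6 ± 0.509 to 54.4 ± 2.74 TPM. Cdkn2a, whose ARF product AML1-ETO represses, fell from 121.7 ± 6.89 to 42.3 ± 0.311 TPM. Jup (plakoglobin), which AML1-ETO raises, fell from 20.06 ± 0.0707 to 12.8 ± 0.41 TPM, and Cav1 from 4.1 ± 0.212 to 1.19 ± 0.276 TPM. Each of these named rises and falls in the 5 lists kept its call in every setting in which the gene was tested, other than that of Suv39h1, and with Prkcq and Zbtb16 not considered. Cav1 was not tested in 1 of the 16 settings.

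**Figure D5:**
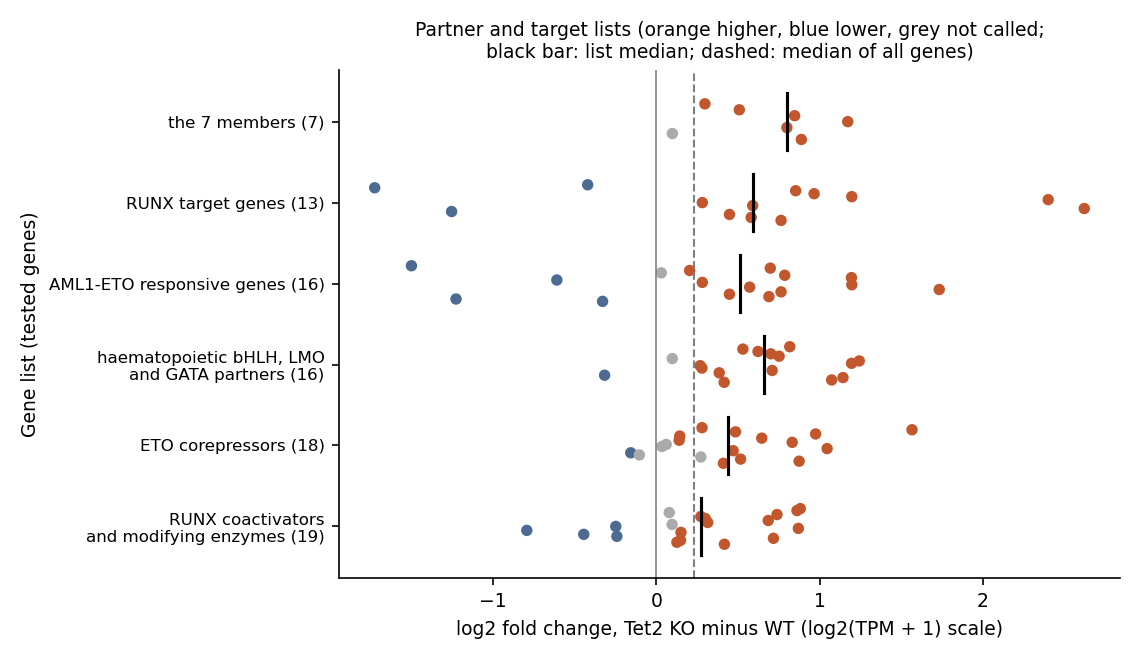
Log2 fold change (Tet2 KO minus WT) of the tested genes of the 7 members and of 5 partner and target lists, coloured by call, with the list median as a black bar and the median of all genes, 0.23, as a dashed line. The blood bHLH, LMO and GATA list has 14 of 16 genes higher, and the target lists spread widely on both sides.

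Markers of blood lineages in which these factors act moved between the groups as well. Their counts below stand beside 54.4% higher and 19.5% lower of all genes tested, or 34.2% and 33.9% after median-ratio scaling. All 12 markers of myeloid cells were expressed above 1 TPM, 6 were higher and 6 lower, and their summed level was 21651 to 21675 TPM in WT and 9914 to 10103 TPM in Tet2 KO, most of it Lyz2. Of 7 megakaryocyte markers 5 were tested and all 5 were higher, with a sum of 82.1 to 84.6 TPM in WT and 211.4 to 227.9 TPM in Tet2 KO. Of 10 mast cell and basophil markers 3 were higher and 5 lower, with a sum of 2266 to 2280 TPM in WT and 5137 to 5329 TPM in Tet2 KO, most of it Cpa3. None of the B cell, T cell or erythroid markers reached 1 TPM in 2 libraries, and Pax5, Ebf1, Cd3e, Cd3g and Hbb-bs were listed at 0 throughout. Of 8 stromal and endothelial markers 1, Pdgfrb, was tested and higher (4.62 ± 0.0495 to 17.2 ± 0.714 TPM). After median-ratio scaling 5 of the 12 myeloid markers were higher and 6 lower, and the counts of the other marker lists stayed the same. How many markers passed the filter through a single group was not counted. The part of these marker differences in the results on the RUNX and ETO genes was not tested. In these bulk libraries, fewer cells of a type and less RNA per cell cannot be told apart.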

How the data were processed

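RNA sequencing values were deposited by the authors as 1 table of TPM, 1 column per library. Per the submitters' processing notes, STAR and RSEM were used on the mm10 build. Their versions, the annotation and any filters were not stated. Depth is unknown, and no interval for counting error could be given. Of 24589 rows, 92 spike-in rows were left out of the tests. A further 27 rows with date-like names were kept as gene rows, tested where they passed the filter, and not named.

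Groups were compared with limma 3.58.1 (R 4.3.3, statmod 1.5.0) for log2(TPM + 1) values, fitting a mean-variance trend with robust estimation, over genes of at least 1 TPM in 2 libraries. P-values are two-sided and adjusted by Benjamini-Hochberg over the 11452 genes tested, with a threshold of 0.05. The fit was tested on simulated data with independent noise and few changed genes, a setting without the general shift seen between these libraries. Median-ratio factors were taken over genes of at least 1 TPM in every library, and spike-in factors likewise over spike-ins. From each list the 3 largest rises and 3 largest falls past the threshold with groups apart were named, with further members given by their values, and for Runx1 the 5 nearest profiles, predicted genes left out. Tcf12, the deacetylase genes and Yap1 were chosen after their values were seen. The members and lists were chosen with earlier results of these data known. Gene positions and transcripts are from GENCODE M21. Python 3.11.15 with matplotlib 3.10.9 drew the figures.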

Additional observations from a re-analysis of the deposited data

How the results depend on the processing

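Over the 15 alternatives, Runx1, Runx2, Runx3, Cbfa2t3 and Cbfa2t2 were higher in Tet2 KO and past the threshold in every one, with log2 fold changes of 0.60 to 0.86, 0.49 to 0.94, 0.65 to 0.94, 0.92 to 1.24 and 0.24 to 0.56. The number of members called was 6 in all settings but 2: 5 after quantile normalization and 7 without Tet2 KO replicate 1. After median-ratio and spike-in scaling it was also 6, but with Runx1t1 lower and Cbfb not called. Runx1t1 turned to -0.13, -0.15 and -0.12 after median-ratio scaling, spike-in scaling and quantile normalization, and Tet2 to -0.21, -0.22 and -0.25. The median of all genes was 0.0108, -0.0029 and 0.0074 under these 3 settings. Leaving out 1 library put Tet2 between -0.0012 and 0.028. Genes called higher numbered 6225, and 3905, 3558 and 3915 under those 3 settings, and genes called lower 2238, and 3872, 3841 and 3741. The share of higher calls went from 73.6 to 50.2, 48.1 and 51.1%. Of the coactivator and modifier list 13 genes were higher on the deposited scale and 7, 7 and 8 under these settings.

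The labels do not say whether libraries with the same replicate number were handled together. Deviations of equally numbered libraries from their group means had a correlation of -0.0733 (Pearson) and -0.233 (Spearman) over 7943 genes, which are not independent. With the replicate block 8390 genes were called in place of 8463, and with the numbers crossed, a pairing added after seeing the data, 8846. With either block 6 members were called. The block did not change the call of any of the 7 members or of Tet2. Having 2 libraries a group and an unknown depth limits the precision of small changes such as those of Cbfb and Runx1t1.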

Other observations

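Runx2 lies across the opposite strand of Supt3, a gene of the SAGA transcription coactivator complex, with no exon in common. Supt3 had 11.62 and 9.11 TPM in the WT libraries against 18.37 and 16.80 TPM with Tet2 KO. Both Tet2 KO libraries were thus above both WT libraries for both genes of the locus, as for 62.4% of all genes tested. No change relative to the median gene is given for Supt3. Supt3 was chosen for its position.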
